A study of Mus musculus with 6 samples.

Results

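The genes described are the 34 that activate fatty acids, carry them into the mitochondrion and oxidise them there, together with the thioesterases and binding proteins that handle the same acyl chains. They were taken by symbol from a fixed list and grouped by step of the pathway, and all 34 were found among the 54385 rows of the count table. All 34 also passed the filter on low counts, which kept 14332 genes for testing.

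A fatty acid is first joined to coenzyme A by an acyl-CoA synthetase, then passed through the mitochondrial membranes as acylcarnitine by carnitine palmitoyltransferases 1 and 2. Inside, acyl-CoA dehydrogenases, a hydratase, a 3-hydroxyacyl-CoA dehydrogenase and a thiolase shorten the chain in repeated cycles, and electron transfer flavoprotein takes the electrons of the first step to the respiratory chain. Brown adipocytes burn fatty acids in this way to make heat, which uncoupling protein 1 releases at the inner membrane.

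RNA was sequenced from brown adipose tissue of C57BL/6N mice, 20 weeks old and fed chow. There were 3 libraries of wild type (WT, wt/wt) and 3 of ADCY3∆AT, which lacks the truncated form of adenylyl cyclase 3 that the labels name Adcy3-AT and that the series' title links to cold. Adenylyl cyclase 3 makes cyclic AMP, the messenger through which noradrenaline acts on brown fat. How the deletion was made, and at what temperature the mice were kept, are not given in the sources used. The sample labels place the tissue between the shoulder blades, whereas the design text of the series names the groin.

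The libraries held 13758492 to 19592156 estimated counts. Values below are CPM, counts scaled to library size with TMM factors that align the bulk of genes between libraries. Shares and ranks of members were taken from CPM per kilobase of exon. The gene said to lead a marker list is the one with the highest mean CPM over all libraries, with no correction for length. The row with the symbol Adcy3 stood at 207.7 ± 40.7 CPM in WT and 200.7 ± 36.5 CPM in ADCY3∆AT (SD, n = 3 each), so it does not check the labels. A row with no symbol, whose identifier ends in the same digits as that of Adcy3, held 117.9 to 214.6 CPM in WT and 0 to 1.27 CPM in ADCY3∆AT. In edgeR it was called lower (adjusted p = 0.000845), so this row separated the libraries as labelled. What each of the 2 rows counts was not tested.

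Brown adipocyte markers were high in every library, with a summed level of 7257.2 to 8961.1 CPM in WT and 7667.2 to 8409.6 CPM in ADCY3∆AT, led by Ucp1. White adipocyte markers, led by Retn, summed to 43.3 to 130.2 CPM in WT and 30.3 to 70.4 CPM in ADCY3∆AT. Retn stood at 15.7 to 48.5 CPM in WT and 7.64 to 37.3 CPM in ADCY3∆AT, and Lep at 19.6 to 62.5 CPM and 4.98 to 11.4 CPM. Nnat held 4.58 to 8.17 CPM in WT and 8.45 to 18.5 CPM in ADCY3∆AT, and Hoxc8 3.25 to 9.81 CPM and 1.92 to 5.94 CPM. Agt did not exceed 1.13 CPM in any library, and Hoxc9, Hoxc10 and Wt1 did not exceed 0.253 CPM. Skeletal muscle markers separated the libraries most, at 70.6, 174.9 and 812.1 CPM in WT replicates 1, 2 and 3 and 47.7 to 50.3 CPM in ADCY3∆AT. Myl1 had the highest mean of them over all libraries, at 43.6 to 69.3 CPM in WT and 43.6 to 47.4 CPM in ADCY3∆AT, and was not called. In WT replicate 3, Myh4 (164.8 CPM), Atp2a1 (156.4 CPM) and Acta1 (117.5 CPM) stood above it, while Myh4 did not exceed 0.22 CPM and Pvalb was at 0 in the ADCY3∆AT libraries. Pan-adipocyte markers, led by Lpl, summed to 11128.4 to 12025.6 CPM in WT and 11363.9 to 11534.3 CPM in ADCY3∆AT. The sum was 67.0 to 122.3 CPM against 65.9 to 114.0 CPM for macrophage markers, led by Lyz2, and 702.1 to 765.8 CPM against 712.9 to 777.7 CPM for endothelial markers, led by Cdh5. The genotype test was passed by 1 of 12 brown markers (Adrb3, higher), 1 of 5 tested white markers (Lep, lower) and 8 of 13 tested muscle markers (all lower), against 4.30% of all genes tested. An unadjusted p under 0.05 was reached by 2, 2 and 12 of these, against 22.6% of all genes. DESeq2 called 2, 2 and 12, but limma-voom 1, 0 and 0, against 7.68% and 3.66% of the genes each of them tested. In edgeR none of 6 pan-adipocyte, 10 macrophage and 10 endothelial markers passed, while 2, 0 and 5 of them had an unadjusted p under 0.05, DESeq2 called 0, 0 and 1, and limma-voom called 0. In bulk tissue, fewer cells of a type and less RNA per cell cannot be told apart.

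The pathway's genes took up a similar share of the counts in both genotypes, and no member passed the genotype test. Counts of the 34 genes together made up 3.37% to 3.60% of all counts in a library, or 35115.9 ± 575.3 CPM in WT and 34724.3 ± 73.1 CPM in ADCY3∆AT. In edgeR's quasi-likelihood test, 0 of 34 members were called at an adjusted p under 0.05, against 4.30% of all genes tested (2.63% higher and 1.67% lower in ADCY3∆AT). DESeq2 and limma-voom also called 0, against 7.68% and 3.66% of the genes each of them tested. An unadjusted p under 0.05 was reached by 2 members, Cpt1b and Acad11, both higher, which is 5.88% of the list against 22.6% of all genes tested (12.4% higher and 10.2% lower). The 3 libraries of one genotype all lay beyond the 3 of the other for 5 members, or 14.7%, against 29.0% of all genes tested (15.1% with all ADCY3∆AT libraries above WT and 13.9% below). These were Cpt1b, Acad11, Hadhb and Eci1, higher in ADCY3∆AT, and Acaa2, lower.

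The size of the differences was small. The median log2 fold change (ADCY3∆AT minus WT) was 0.00 over the members and -0.01 over all genes tested, and the median without sign was 0.06 against 0.18. Its sign was negative for 18 members, with Acadl and Acadvl at 0.00 among them, and positive for 16, against 51.1% negative over all genes tested. It was under 0.1 for 23 members, between 0.1 and 0.2 for 8 and above 0.2 for 3, with a range from -0.19 (Fabp4) to 0.33 (Fabp3). The 95% interval lay within a 1.2-fold change in either direction for 19 of 34 members, against 12.5% of all genes tested, and within a 1.5-fold change for 30 members, against 53.3%. Intervals of Acsl3, Acsl5, Fabp3 and Fabp5 reached past 1.5-fold, so these libraries set no tighter limit on their change. The median SE was 0.07 for the members and 0.14 for all genes tested. The background of all genes tested was not matched for level, and 25 members ranked within the first 1000 genes by CPM per kilobase. Abundant genes vary less between libraries: the median coefficient of variation was 5.96% for genes at 50.9 CPM or more, against 11.1% for all genes tested. The p-values measure the spread between these libraries, and no label states whether each came from a separate mouse, so part of it may be technical.

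**Figure D1:**
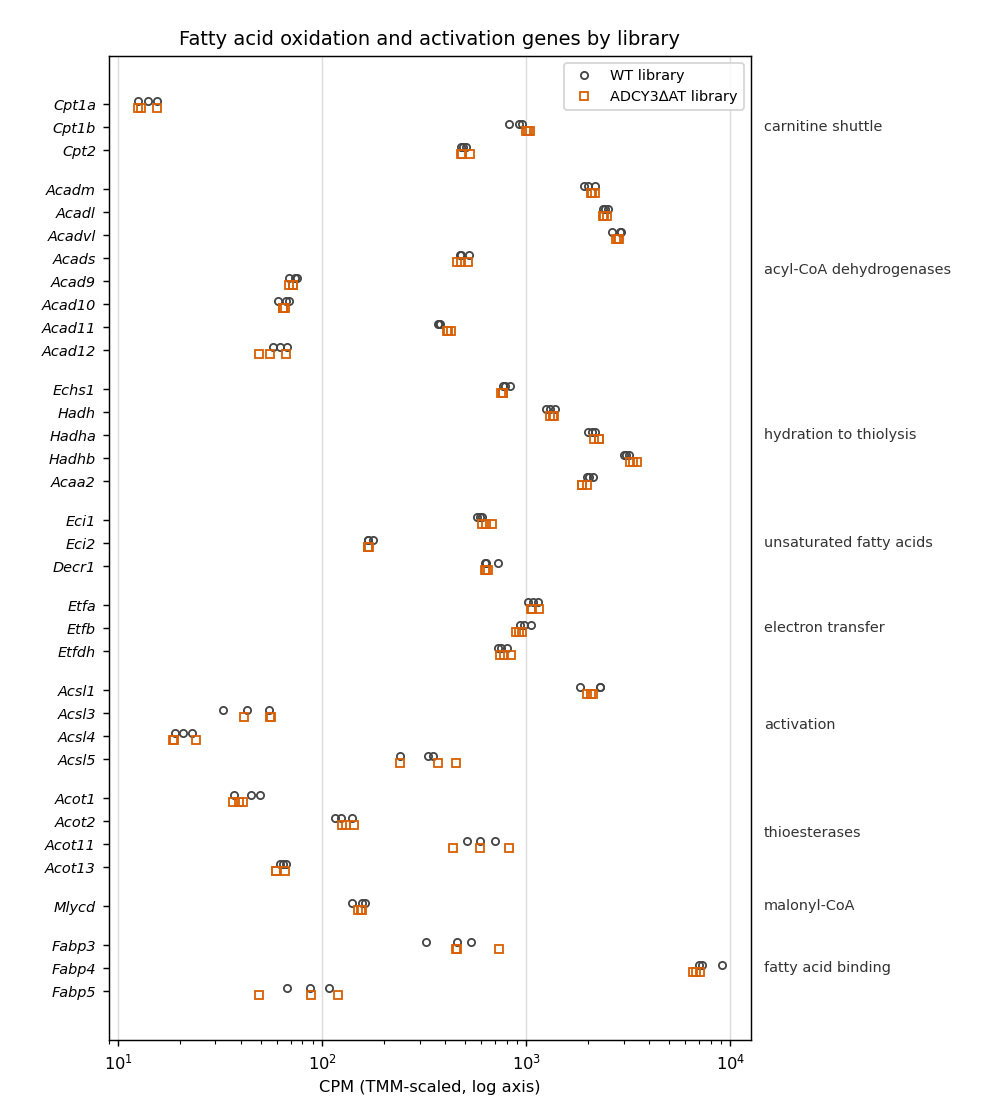
CPM of each of the 34 genes in each library on a log axis, ordered by step, with circles for the 3 WT and squares for the 3 ADCY3∆AT libraries. Fabp4 lies highest and Cpt1a lowest, and the libraries of the 2 genotypes overlap for 29 of the 34 genes.

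Several members were among the most abundant messages of the tissue. Ranked by CPM per kilobase in WT among 14321 tested genes with a known exon length, 9 members stood within the first 100 and 25 within the first 1000. Fabp4 ranked 29th, Acaa2 34th, Acadl 37th, Acadvl 43rd and Etfb 48th. At the other end, Acsl4 ranked 6002nd and Cpt1a 8511th. The order by CPM per kilobase depends on the length used, since exons that this tissue may not use add to the union of exons.

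In the carnitine shuttle, the muscle-type isoform made up nearly all of carnitine palmitoyltransferase 1, the outer-membrane enzyme that sets the rate of entry. Cpt1b held 99.3% ± 0.0758 of the CPM per kilobase of Cpt1a plus Cpt1b in WT and 99.4% ± 0.0671 in ADCY3∆AT (SD, n = 3 each). With the longest transcript as the length, these shares were 99.0% and 99.1%. Cpt1b (chr15:89416405-89425863, minus strand, GRCm38) stood at 916.7, 950.6 and 824.5 CPM in WT and at 996.3, 1037.9 and 1022.8 CPM in ADCY3∆AT. Every ADCY3∆AT library lay above every WT library, and on the log2 scale the difference was 0.18 (SE 0.07, 95% interval 0.02 to 0.35), with an adjusted p of 0.182 and an exact two-sided permutation p of 0.1, the smallest that 3 against 3 libraries allow. Skeletal muscle also expresses Cpt1b. WT replicate 3, the library with the highest muscle marker sum, had the lowest Cpt1b, and without it the log2 fold change was 0.13. The part of muscle in the Cpt1b values was not tested. Exons of Cpt1b overlap a predicted gene, Gm44502, over 81.4% of their length, and that row held 8.09 ± 1.19 CPM in WT. Summing both rows left the log2 fold change at 0.18.

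Cpt1a (chr19:3322334-3385733, plus strand), the liver-type isoform, was the least abundant member, at 12.5, 15.5 and 14 CPM in WT and 12.5, 12.9 and 15.5 CPM in ADCY3∆AT. Its libraries overlapped, and the log2 fold change was -0.04 (95% interval -0.32 to 0.25). Cpt2, the inner-membrane enzyme that returns the acyl group to coenzyme A, stood at 487.7, 478.0 and 508.3 CPM in WT and 480.7, 482.5 and 529.5 CPM in ADCY3∆AT, with a log2 fold change of 0.02 (95% interval -0.14 to 0.17). The ratio of Cpt1b to Cpt2 per kilobase was 1.3 ± 0.134 in WT and 1.45 ± 0.0789 in ADCY3∆AT.

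**Figure D2:**
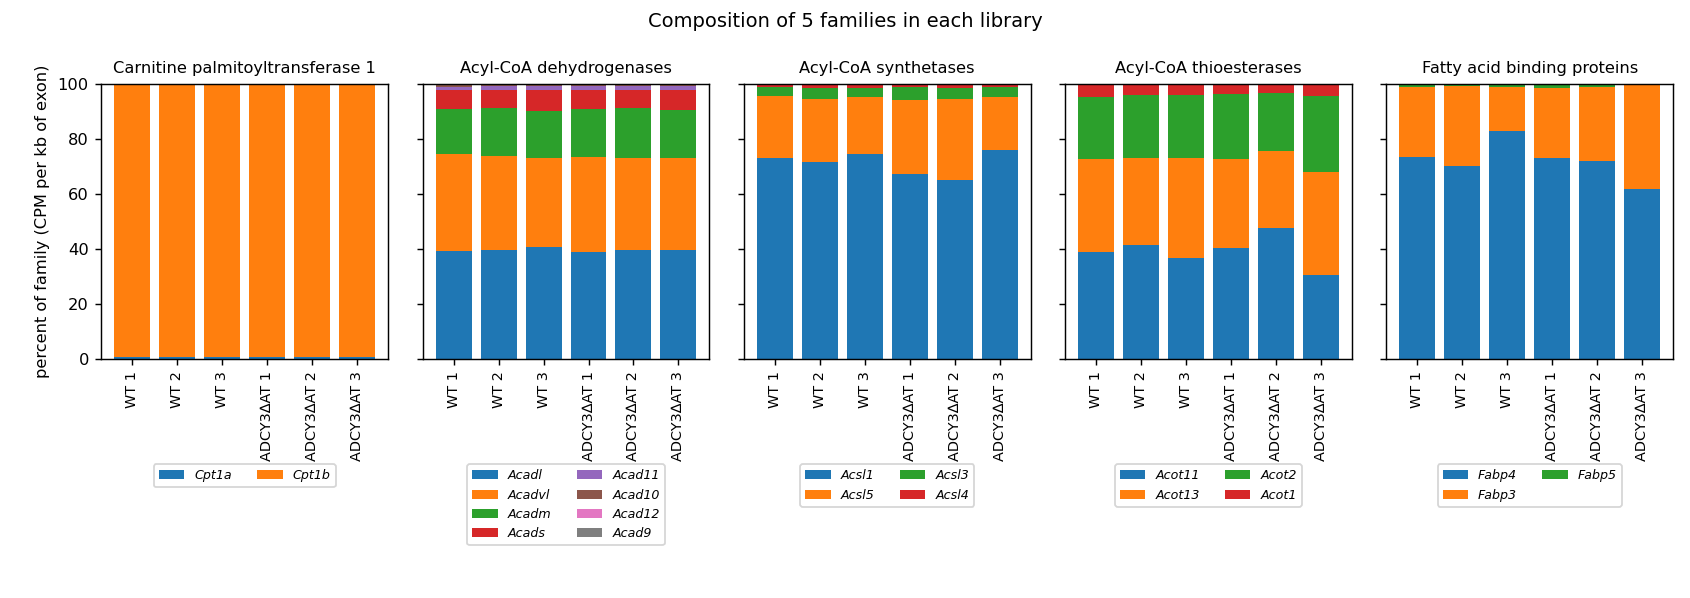
Share of each gene in 5 families, as a percent of the family's summed CPM per kilobase of exon, with 1 stacked bar per library. Cpt1b fills nearly the whole bar of its pair in all 6 libraries, the acyl-CoA dehydrogenase bars look alike, and the synthetase, thioesterase and binding protein bars vary between libraries of 1 genotype.

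The acyl-CoA dehydrogenases, which take the first electrons from the chain, were dominated by the 4 classical enzymes, named for the chain length each prefers. Acadl, Acadvl, Acadm and Acads together held 97.8% ± 0.0929 of the family's CPM per kilobase in WT and 97.7% ± 0.0355 in ADCY3∆AT. Acadl, the long-chain enzyme, held 39.7% ± 0.724 in WT and Acadvl, the very-long-chain enzyme, 34.1% ± 1.41. With the longest transcript as the length these became 32.1% and 32.7%, so their order depends on the length used.

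Acadl stood at 2362.8, 2499.7 and 2435.3 CPM in WT and 2387.5, 2413.3 and 2484.5 CPM in ADCY3∆AT. The libraries were interleaved, and its log2 fold change of 0.00 had a 95% interval of -0.14 to 0.14. For Acadvl the values were 2873.2, 2903.0 and 2631.5 CPM in WT and 2844.2, 2758.5 and 2804.4 CPM in ADCY3∆AT, with a log2 fold change of 0.00 (95% interval -0.15 to 0.15). Exons of Acadvl overlap those of Dvl2, on the opposite strand, over 42.9% of their length, and Dvl2 held 19.2 ± 0.899 CPM in WT. Acadm, the medium-chain enzyme, stood at 2025.6 ± 128.3 CPM in WT and 2112.1 ± 56.5 CPM in ADCY3∆AT (log2 fold change 0.06, 95% interval -0.10 to 0.22). Acads, the short-chain enzyme, stood at 492.0 ± 26.1 and 485.2 ± 33.1 CPM (log2 fold change -0.02, adjusted p = 0.906).

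Acad11 (chr9:104063377-104127725, plus strand), a less studied acyl-CoA dehydrogenase, was the member with the smallest spread and the smallest p. It stood at 376.6, 367.2 and 373.1 CPM in WT and at 410.9, 413.1 and 429.2 CPM in ADCY3∆AT. The 2 sets of libraries did not overlap, and on the log2 scale the difference was 0.17 (SE 0.06, 95% interval 0.03 to 0.30), with an adjusted p of 0.141. It was 0.15 to 0.19 when any 1 library was left out. Acad9, which also serves in the assembly of respiratory complex I, stood at 72.6 ± 3.43 CPM in WT and 70.8 ± 2.00 CPM in ADCY3∆AT. Acad10 and Acad12, neighbours on chromosome 5 that share sequence, had log2 fold changes of -0.02 and -0.13 (adjusted p = 0.91 and 0.567). Counted as 1 gene, the pair had a log2 fold change of -0.07 (95% interval -0.24 to 0.10).

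Hydration, the second oxidation and thiolysis are carried out on long chains by the trifunctional protein, whose alpha and beta subunits are encoded by Hadha and Hadhb, and on shorter chains by Echs1, Hadh and Acaa2. Hadha (chr5:30118304-30155162, minus strand) and Hadhb (chr5:30155248-30184593, plus strand) lie head to head with 85 bases between them, so their promoter windows overlap. The window of 300 bases around the start of Hadhb, from RefSeq (GRCm38.p6, chr5:30155003-30155302, plus strand), is shown because 228 of its bases (76.0%) are also in the window of Hadha. Capitals mark the GC box, GGGCGG, on either strand.

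Hadhb: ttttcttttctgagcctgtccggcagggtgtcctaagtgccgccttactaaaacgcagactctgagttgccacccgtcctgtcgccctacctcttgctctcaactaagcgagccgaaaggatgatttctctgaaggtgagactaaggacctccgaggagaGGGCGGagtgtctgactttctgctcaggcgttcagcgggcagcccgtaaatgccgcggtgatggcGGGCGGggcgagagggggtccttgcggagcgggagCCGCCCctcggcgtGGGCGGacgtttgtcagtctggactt

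Hadhb stood at 3085.7, 3175.0 and 3016.2 CPM in WT and 3322.8, 3227.3 and 3482.9 CPM in ADCY3∆AT. All ADCY3∆AT libraries lay above those of WT, with a log2 fold change of 0.11 (95% interval -0.04 to 0.26, adjusted p = 0.346). Hadha stood at 2090.4, 2164.7 and 2007.6 CPM in WT and 2263.6, 2149.5 and 2264.8 CPM in ADCY3∆AT, with 1 overlapping library and a log2 fold change of 0.09 (95% interval -0.06 to 0.24). The ratio of Hadha to Hadhb per kilobase was 0.512, 0.515 and 0.503 in WT and 0.515, 0.503 and 0.491 in ADCY3∆AT. Each gene also varied little by itself, with coefficients of variation, averaged over genotypes, of 3.37% for Hadha and 3.22% for Hadhb. Whether the shared window has a part in the ratio was not tested.

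Acaa2, the medium-chain thiolase, was the member of this step with the highest level per kilobase. It stood at 1991.8, 2023.0 and 2121.0 CPM in WT and 1866.0, 1865.4 and 1978.9 CPM in ADCY3∆AT, the only member whose ADCY3∆AT libraries all lay below WT. Its log2 fold change was -0.10 (95% interval -0.25 to 0.04, adjusted p = 0.381). Echs1, the short-chain hydratase, stood at 796.3 ± 30.9 CPM in WT and 765.6 ± 8.86 CPM in ADCY3∆AT (adjusted p = 0.631). Hadh, the 3-hydroxyacyl-CoA dehydrogenase of shorter chains, stood at 1314.1 ± 67.7 and 1343.1 ± 29.4 CPM (adjusted p = 0.825). Within this step the log2 fold changes of Acaa2 and of the trifunctional protein subunits differed in sign. None passed the test, and each of their 95% intervals spanned both signs.

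Double bonds are moved or reduced by auxiliary enzymes before an unsaturated chain can be oxidised. Eci1, the mitochondrial enoyl-CoA isomerase and the highest of these per kilobase, stood at 574.9, 590.6 and 605.3 CPM in WT and 609.2, 676.7 and 636.1 CPM in ADCY3∆AT. The sets did not overlap, though the highest WT and lowest ADCY3∆AT library nearly met, and the log2 fold change was 0.12 (95% interval -0.03 to 0.27, adjusted p = 0.333). Eci2, an isomerase also found in peroxisomes, stood at 171.1 ± 5.58 CPM in WT and 168.5 ± 1.46 CPM in ADCY3∆AT. Decr1, the dienoyl-CoA reductase, stood at 662.3 ± 54.9 and 635.8 ± 11.4 CPM. Neither passed the test (adjusted p = 0.864 and 0.685).

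Electron transfer flavoprotein consists of the subunits Etfa and Etfb, and Etfdh passes its electrons to ubiquinone. Etfb, the highest per kilobase, stood at 973.9, 928.9 and 1057.2 CPM in WT and 916.3, 957.8 and 890.9 CPM in ADCY3∆AT. The libraries overlapped, with a log2 fold change of -0.10 (95% interval -0.26 to 0.07), also when the row of Gm45233, a predicted gene over 58.2% of its exon length, was added. Etfa stood at 1078.8 ± 64.1 CPM in WT and 1093.4 ± 49.8 CPM in ADCY3∆AT, and Etfdh at 757.7 ± 40.0 and 788.7 ± 50.5 CPM (adjusted p = 0.904 and 0.689). The ratio of Etfa to Etfb per kilobase was 0.697 ± 0.086 in WT and 0.752 ± 0.0165 in ADCY3∆AT, a difference smaller than the WT spread. Summed over its 3 genes, the step held 2823.1 ± 42.7 CPM in WT and 2803.7 ± 51.6 CPM in ADCY3∆AT.

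Activation to acyl-CoA rested mostly on Acsl1, the main long-chain synthetase of adipocytes. Acsl1 held 72.9% ± 1.49 of the CPM per kilobase of the 4 synthetases in WT and 69.3% ± 5.85 in ADCY3∆AT, and Acsl5, found at mitochondria and the endoplasmic reticulum, 22.2% ± 1.15 and 25.2% ± 5.50. Acsl1 stood at 2292.7, 2308.9 and 1832.5 CPM in WT and 1982.7, 2126.7 and 2065.4 CPM in ADCY3∆AT. The WT replicate 3 library was the low one, and the log2 fold change of -0.06 (95% interval -0.28 to 0.16) was -0.16 without it (adjusted p = 0.232). Acsl5 stood at 329.4, 347.3 and 239.2 CPM in WT and 368.9, 451.7 and 240.8 CPM in ADCY3∆AT. Replicate 3 was the lowest in both genotypes, and the log2 fold change of 0.21 (95% interval -0.29 to 0.72) ranged from 0.00 to 0.43 as single libraries were left out. Acsl3, a synthetase of the endoplasmic reticulum and lipid droplets, stood at 43.3 ± 11.1 CPM in WT and 51.1 ± 8.47 CPM in ADCY3∆AT. Acsl4, which prefers arachidonate, stood at 21.0 ± 1.98 and 20.5 ± 3.09 CPM. Their log2 fold changes were 0.24 (95% interval -0.19 to 0.67) and -0.04 (-0.32 to 0.25). That of Acsl3 was 0.07 without WT replicate 3 and 0.44 without WT replicate 2.

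Thioesterases reverse the activation by freeing the fatty acid from coenzyme A. Acot11, known as the brown fat-inducible thioesterase, was the highest of the 4 per kilobase and the one with the widest spread. It stood at 594.3, 703.3 and 512.1 CPM in WT and 594.9, 819.5 and 436.4 CPM in ADCY3∆AT. Replicate 2 was the highest and replicate 3 the lowest in both genotypes, and the log2 fold change was 0.03 (95% interval -0.45 to 0.51). Acot1 (chr12:84009490-84018371) is cytosolic and Acot2 (chr12:83987861-83993873) mitochondrial, and the genes share sequence: 16.7% of the 31-base words of Acot1 transcripts also occur in Acot2. Acot1 stood at 49.4, 44.9 and 37.1 CPM in WT and 36.7, 39.3 and 41.1 CPM in ADCY3∆AT. Acot2 stood at 123.2, 140.2 and 115.8 CPM in WT and 125.4, 130.2 and 142.4 CPM in ADCY3∆AT. The split between the pair is uncertain, and their sum, 170.2 ± 16.2 CPM in WT and 171.7 ± 10.9 CPM in ADCY3∆AT, had a log2 fold change of 0.01 (95% interval -0.19 to 0.21). Acot13 stood at 64.0 ± 2.11 and 61.4 ± 3.60 CPM (adjusted p = 0.665).

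Mlycd, malonyl-CoA decarboxylase, removes the malonyl-CoA that inhibits carnitine palmitoyltransferase 1. It stood at 157.3, 161.6 and 140.2 CPM in WT and at 154.3, 150.2 and 156.6 CPM in ADCY3∆AT. The libraries overlapped, with a log2 fold change of 0.01 (95% interval -0.16 to 0.17).

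The fatty acid binding proteins, which carry fatty acids through the cytosol, included the 2 members with the widest spread between libraries, Fabp5 and Fabp3. Fabp4 (chr3:10204088-10208576, minus strand), the adipocyte form, held 75.4% ± 6.46 of the CPM per kilobase of the 3 genes in WT and 68.9% ± 6.34 in ADCY3∆AT. These shares rest on exon lengths of 4489 bases for Fabp4, 3567 for Fabp5 and 823 for Fabp3. Which transcripts this tissue uses was not tested. Without division by length, mean levels in WT were 7776.0 CPM for Fabp4, 438.1 CPM for Fabp3 and 87.2 CPM for Fabp5. Fabp4 stood at 7226.8, 7038.7 and 9062.4 CPM in WT and 7105.8, 6747.3 and 6554.9 CPM in ADCY3∆AT. WT replicate 3 was the high library, the sets overlapped, and the log2 fold change of -0.19 (95% interval -0.43 to 0.05) was -0.07 without it. That library also had the highest sums of pan-adipocyte, white adipocyte, muscle and macrophage markers, and the lowest of brown adipocyte and endothelial markers. The part of these cells in the value was not tested. Fabp4 alone made up 0.661% to 0.919% of all counts, and without it the other members held 2.68% to 2.85%.

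Fabp3 (chr4:130308595-130315463, plus strand), the heart and muscle form, stood at 456.9, 533.4 and 323.9 CPM in WT and 452.4, 459.5 and 737.3 CPM in ADCY3∆AT. ADCY3∆AT replicate 3 was far above the others, and the log2 fold change of 0.33 (SE 0.23, 95% interval -0.19 to 0.85, adjusted p = 0.431) fell to 0.06 without that library. Without any filter on low counts Fabp3 was called (log2 fold change 0.35, adjusted p = 0.00144), the only member called under any alternative. Of the 31-base words of Fabp3, 35.2% also occur in the pseudogene Fabp3-ps1, whose row held no more than 0.131 CPM in any library. The muscle marker sum was highest in WT replicate 3, which had the lowest Fabp3, and was 47.7 to 50.3 CPM in ADCY3∆AT. The part of muscle in the Fabp3 values was not tested. Fabp5 (chr3:10012548-10016607, plus strand), the epidermal form, which macrophages also express, stood at 87.2, 67.0 and 107.4 CPM in WT and 119.1, 88.1 and 48.8 CPM in ADCY3∆AT. The log2 fold change of -0.03 (95% interval -0.71 to 0.64) was 0.25 without ADCY3∆AT replicate 3. In the same order of libraries, the macrophage marker sum was 67.0, 75.5 and 122.3 CPM in WT and 65.9, 102.2 and 114.0 CPM in ADCY3∆AT. The part of macrophages in the Fabp5 values was not tested.

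**Figure D3:**
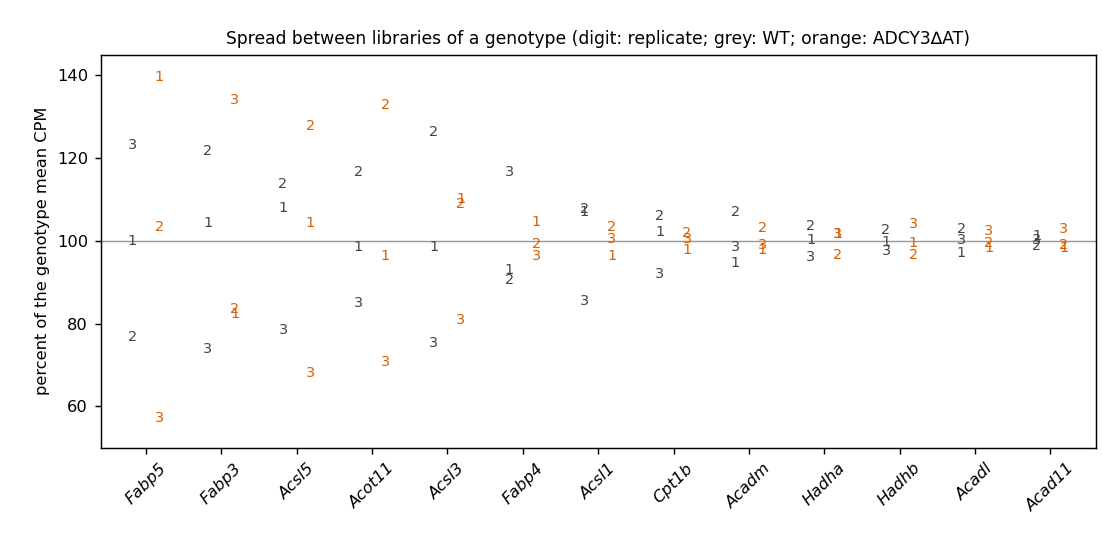
CPM of each library as a percent of its genotype's mean, for 13 members ordered from wide to narrow spread, with the digit giving the replicate, grey for WT and orange for ADCY3∆AT. Fabp5, Fabp3, Acsl5, Acot11 and Acsl3 spread widely, while Acadl and Acad11 stay close to the mean.

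Variation between libraries of a genotype fell into a tight core and a few loose genes. The median coefficient of variation, averaged over genotypes, was 4.89% for the members, 11.1% for all tested genes and 5.96% for the 2657 tested genes at a mean level of at least 50.9 CPM. It was under 6% for 21 members and above 15% for 5, which were Fabp5 (32.2%), Fabp3 (26.9%), Acsl5 (24.5%), Acot11 (23.6%) and Acsl3 (21.1%). Enzymes of the oxidation cycle were all in the rest. Within both genotypes Acsl5 and Acot11 were highest in replicate 2 and lowest in replicate 3, as were Acsl4 (12.3%) and Acad9 (3.78%). Whether the shared replicate number has a meaning is not given by the labels.

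Promoter windows of RefSeq (GRCm38.p6, 250 bases before to 50 after the start) were found for 27 of the 34 members (not Acaa2, Acad9, Acot13, Cpt1b, Decr1, Fabp4 and Fabp5), and 5 motifs were searched on both strands. The full peroxisome proliferator response element, a direct repeat of AGGTCA with any 1 base between the copies, was in none of the 27 and in 0.0396% of all 32851 windows. The estrogen-related receptor element TCAAGGTCA was in none, against 0.423%, and the cyclic AMP response element TGACGTCA in none, against 1.79%. The shorter half-site AAGGTCA, which TCAAGGTCA contains, was found for 1 of the 27 genes, Acadm (3.70%, against 4.72%). The GC box GGGCGG was in 18 of 27 (66.7%), against 35.7% of all windows. Members were counted as genes with a match in any of their 29 windows, and the background as single windows, so the percentages differ in unit. The Acadm window (chr3:153944594-153944893, minus strand) is shown for its half-site, in capitals as the reverse complement.

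Acadm: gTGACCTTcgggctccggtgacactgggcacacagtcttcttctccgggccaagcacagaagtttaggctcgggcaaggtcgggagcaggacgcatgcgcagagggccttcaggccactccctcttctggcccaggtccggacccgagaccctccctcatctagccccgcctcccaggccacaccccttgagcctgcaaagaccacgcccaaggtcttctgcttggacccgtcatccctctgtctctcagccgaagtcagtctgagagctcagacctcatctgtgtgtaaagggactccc

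These matches are letters in a window of fixed length and describe no binding.

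Among 63 other genes of fatty acid transport, activation, oxidation and control, 59 were tested and 3 were called (5.08%, against 4.30% of all genes tested), all from the list of regulators. Pdk4 and Angptl4 rose and Ucp3 fell. Pdk4, the kinase that shuts off pyruvate dehydrogenase, stood at 782.1, 1365.9 and 622.5 CPM in WT and at 3616.9, 2808.1 and 2049.0 CPM in ADCY3∆AT, a log2 fold change of 1.61 (SE 0.30, adjusted p = 0.0275). Angptl4, an inhibitor of lipoprotein lipase, stood at 101.7, 142.3 and 98.0 CPM in WT and at 322.3, 210.8 and 222.0 CPM in ADCY3∆AT, a log2 fold change of 1.14 (SE 0.19, adjusted p = 0.0194). Ucp3, a mitochondrial carrier related to uncoupling protein 1, stood at 135.3, 148.2 and 120.0 CPM in WT and at 82.7, 89.9 and 64.5 CPM in ADCY3∆AT, a log2 fold change of -0.77 (SE 0.13, adjusted p = 0.0196). No library of one genotype reached the other for these 3 genes, as for 29.0% of all genes tested. Ucp3 is also expressed in skeletal muscle, whose marker sum was 70.6, 174.9 and 812.1 CPM in WT and 47.7 to 50.3 CPM in ADCY3∆AT. Without WT replicate 3 Ucp3 was called at a log2 fold change of -0.84 (adjusted p = 0.036). The part of muscle in the Ucp3 difference was not tested.

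Of the 12 genes of the regulator list, 7 had an unadjusted p under 0.05, 6 higher and 1 lower, against 22.6% of all genes tested. DESeq2 called 5 and limma-voom 3, against 7.68% and 3.66% of the genes each of them tested. DESeq2 added Ppargc1a and Ppargc1b, coactivators that drive mitochondrial genes, which are named here after their values were seen. Ppargc1a stood at 22.2, 21.8 and 13.6 CPM in WT and 26.2, 41.2 and 47.9 CPM in ADCY3∆AT, a log2 fold change of 1.01 (SE 0.25, adjusted p = 0.0609 in edgeR and 0.000408 in DESeq2). Ppargc1b stood at 74.4, 61.9 and 46.6 CPM in WT and 96.1, 77.9 and 106.6 CPM in ADCY3∆AT, a log2 fold change of 0.62 (SE 0.17, adjusted p = 0.0845 in edgeR and 0.0066 in DESeq2). For both genes the libraries lay apart by genotype, as for 29.0% of all genes tested.

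The 3 edgeR calls depended on single libraries. Without WT replicate 1 none of the 3 was called (log2 fold changes 1.51 for Pdk4, 1.07 for Angptl4 and -0.76 for Ucp3). Pdk4 was also lost without WT replicate 3 (1.39) or ADCY3∆AT replicate 2 (1.62), Angptl4 without WT replicate 3 (1.05), and Ucp3 without WT replicate 2 (-0.69). The direction was the same each time.

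**Figure D4:**
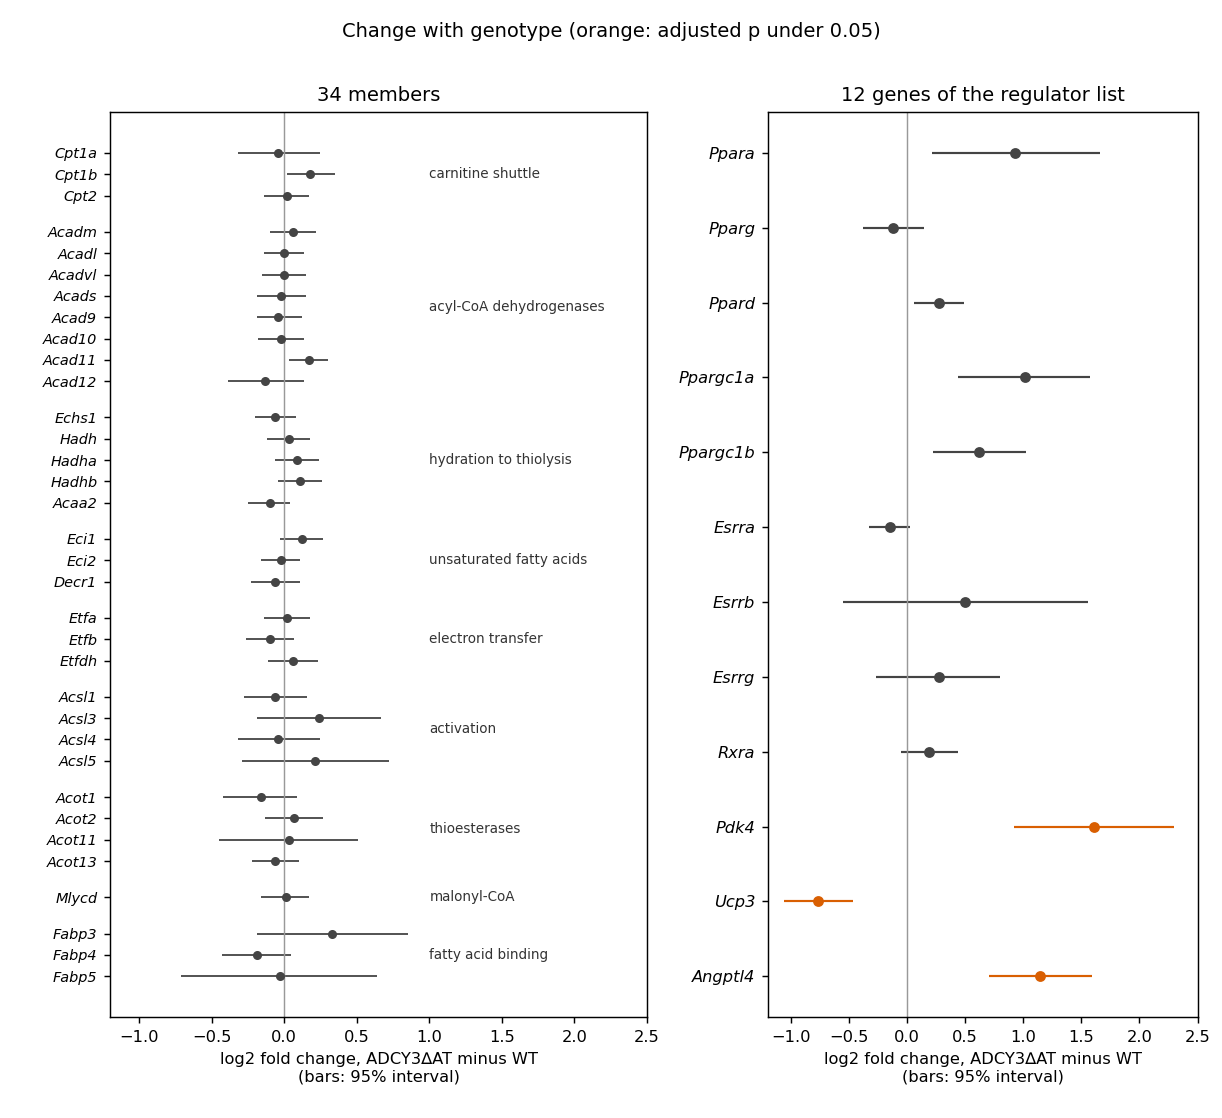
Log2 fold change (ADCY3∆AT minus WT) with 95% intervals for the 34 members by step at left and for the 12 genes of the regulator list at right, with orange for an adjusted p under 0.05. The members lie between -0.19 and 0.33, while Pdk4 (1.61) and Angptl4 (1.14) lie to the right and Ucp3 (-0.77) to the left.

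In the other 5 lists edgeR called no gene, and the gene with the smallest p is given for 4 of them. An unadjusted p under 0.05 was reached by 22.6% of all genes tested, and DESeq2 called 7.68% of those it tested. Of 14 tested genes of transport and activation, 5 had such a p and DESeq2 called 1. Acss1, the mitochondrial acetyl-CoA synthetase, stood at 171.3, 193.9 and 213.4 CPM in WT and 239.6, 247.8 and 247.8 CPM in ADCY3∆AT (log2 fold change 0.35, adjusted p = 0.0616). In the lists below DESeq2 called none, and limma-voom called none in any of the 5. Of 8 other thioesterases 2 had such a p, and for Acot4 the log2 fold change was -0.42 (adjusted p = 0.129). Of 6 genes of malonyl-CoA control 2 did, and Mcat, of mitochondrial fatty acid synthesis, had one of -0.25 (adjusted p = 0.0784). Of 15 genes of other oxidation 1 did. Of 4 tested ketone body genes none did, and Acat1, the acetoacetyl-CoA thiolase, had one of -0.12 (adjusted p = 0.269). Median log2 fold changes were between -0.15 and 0.04 in these 5 lists and 0.39 in the list of 12 regulators, against -0.01 over all genes tested.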

How the data were processed

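Polyadenylated RNA of 6 brown adipose tissue libraries was sequenced in pairs of reads. The authors deposited estimated counts per gene, not scaled between libraries. The submitters' processing notes name GRCm38, StringTie, Salmon and edgeR, while versions, roles and the use of strand are not given in the sources used here. Overlapping and antisense genes therefore cannot be told apart. Columns were assigned to samples by their labels, and 54131 of 54385 rows had a GENCODE M21 symbol.

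Counts were rounded, filtered with filterByExpr (minimum count 10, minimum total 15), scaled by TMM and tested two-sided with edgeR 4.0.16 (quasi-likelihood F test, R 4.3.3) on genotype alone. A call is a Benjamini-Hochberg adjusted p under 0.05 over all 14332 genes. SE and 95% intervals come from the F statistic and its degrees of freedom. Beside it stood an exact permutation test of log2(CPM + 0.5) over 10 divisions. Lengths are the union of exons, with the longest transcript as alternative. Transcripts were compared by words of 31 bases.

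DESeq2 1.42.0, limma-voom (limma 3.58.1), 3 other scalings, 2 other filters, a replicate block and the omission of each library were tried, and rows sharing sequence were summed, the last chosen after seeing the data. Library depth of 13758492 to 19592156 counts puts 3 counts at 0.152 to 0.222 CPM. Pairs of replicates differed beyond counting error, with a chi-square, averaged over genes, of 6.34 to 26.6 for a pair.

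Members and lists were chosen with earlier results of these data known. Every member is accounted for. Values in every library were given for members with an unadjusted p under 0.05, the highest per kilobase of each step and isoform pairs. Other members with per-library values were added after their values were seen. Of other pathway genes, those called or, in lists without a call, the one with the smallest p were named, except 1 gene that is not reported here.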

Additional observations from a re-analysis of the deposited data

How the results depend on the processing

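Members called stayed at 0 under every alternative but the one without a filter on low counts, where 1 (Fabp3) was called. There the quasi-likelihood dispersion used for Fabp3, moderated toward the trend over genes, was 0.442, against 3.08 in the filtered data. The prior degrees of freedom were infinite without the filter and 4.34 with it. Without the filter, then, the spread of Fabp3 itself had no weight in that dispersion. All-gene calls (616) were 993 with DESeq2, 1951 without a filter, 324 with a replicate block, and 162 (without WT replicate 1) to 461 with 1 library left out. Upper-quartile scaling gave 556, 282 higher and 274 lower, against 377 and 239. The 3 calls among other pathway genes were 6 with DESeq2, 12 without a filter, 3 with the replicate block and 0 (without WT replicate 1) to 4 with 1 library left out. Same-numbered libraries did not deviate together (correlations 0.00134, -0.00679 and -0.0486), so the numbers were not taken as pairs.

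The log2 fold change of 11 of 34 members turned its sign under at least 1 alternative, and Acadl and Acadvl, at 0.00, lay on both sides of 0 (-0.04 to 0.02 and -0.04 to 0.03). It turned with upper-quartile scaling for Cpt2 (-0.02), Etfa (-0.02), Hadh (-0.01) and Mlycd (-0.03) and without a filter for Acad10 (0.01). With 1 library left out it ranged from -0.07 to 0.02 for Acad10, -0.07 to 0.03 for Acads, -0.22 to 0.23 for Acot11, -0.16 to 0.04 for Acsl4, -0.14 to 0.04 for Cpt1a, -0.03 to 0.05 for Cpt2, -0.10 to 0.01 for Decr1, -0.02 to 0.06 for Etfa, -0.35 to 0.25 for Fabp5 and -0.05 to 0.05 for Mlycd. The cause was not tested. With 3 libraries a genotype, the 95% interval stayed within a 1.3-fold change for 26 members and not for the other 8.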
